A study of Mus musculus with 6 samples.

Results

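The 10 genes described here encode transcription factors of the oligodendrocyte lineage, taken by gene symbol from the 19505 genes that the mouse array annotation names: *Olig2*, *Olig1*, *Sox10*, *Sox8*, *Nkx2-2*, *Tcf7l2*, *Zfp488*, *Myrf*, *Nkx6-2* and *St18*. All 10 were found, each with 1 transcript cluster, the set of probes that measures a gene. Total RNA came from the hippocampus of pups on postnatal day 10, 1 array per sample, with 3 samples for *LAO1* KO on WT milk (pups of genotype *LAO1* KO, mother genotype WT) and 3 for *LAO1* KO on KO milk (pups of genotype *LAO1* KO, mother genotype *LAO1* KO). All pups thus lacked *LAO1*, the gene of an L-amino acid oxidase of milk, and the groups differed in the nursing dam, since the study exchanged newborns between dams of a C57BL/6Jcl background. No source names the dam or litter of an array, so p-values measure the spread between these 6 samples only.

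Oligodendrocytes arise from dividing precursors, which leave the cell cycle, pass through a premyelinating stage and then wrap axons with myelin. OLIG2 and SOX10 are present through the whole lineage, whereas TCF7L2 marks cells that have just left the precursor state, and MYRF switches on the genes of the myelin sheath after that. In the mouse hippocampus, myelin formation begins after birth, so that precursors, premyelinating cells and first myelinating cells lie side by side in such a sample. In bulk tissue, fewer cells of a type and less RNA per cell cannot be told apart.

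The arrays had medians between 6.89 and 6.92 on the log2 intensity scale, over 22206 clusters. Values per array are given in the order of replicates 1, 2 and 3 of each group. *Lao1* lay between 4.06 and 4.66 in all samples, which checks no label, since both groups carry the deletion. *Slc17a7*, of excitatory neurons, read 17.44 to 17.84 and *Prox1*, of dentate granule cells, 13.44 to 14.39, so defining genes of the labelled tissue were present. The labels call all pups male and the methods give both sexes for neonates, and Y-linked genes were high in 3 of 6 arrays (WT milk replicates 1 and 3 and KO milk replicate 2) and low in the other 3. KO milk replicate 3 stood apart, with a root mean square difference from each other array of 0.479 to 0.537 on the log2 scale, against 0.321 to 0.407 among the other 5. *Ttr*, the leading gene of the choroid plexus next to the hippocampus, read 17.74, 17.68 and 17.10 across WT milk arrays, and 10.76, 18.18 and 7.69 across KO milk arrays. Results are therefore given with and without KO milk replicate 3 and by Y-gene signal where they differ.

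All 10 factors had a lower mean on KO milk than on WT milk, although 8 of them did not pass an unadjusted p of 0.05. *Tcf7l2* and *Myrf* were lower with an unadjusted limma p under 0.05, with 1.97-fold and 1.62-fold more signal on WT milk, and in both the groups did not overlap. The values for *Olig2*, *Sox10*, *Sox8* and *Zfp488* were 1.37-fold, 1.40-fold, 1.28-fold and 1.22-fold. Among all 19505 genes, 1.70% were lower at the same threshold and 1.46% higher, 4.25% had all KO milk arrays below all WT milk arrays and 4.15% the reverse, and 49.5% had a fold change below 0. The median log2 fold change (negative where KO milk was lower) was -0.32 over the 10 factors and 0.00 over all genes. The factors were chosen with earlier results of these arrays known, so these counts describe them and are not independent evidence of a direction. After Benjamini-Hochberg adjustment limma called 0 of 22206 clusters (with an unadjusted p under 0.05 for 369 lower clusters, 1.66%, and 357 higher ones, 1.61%), an unmoderated test per cluster called 0 as well, and each of the 10 factors had an adjusted p of 0.9996.

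**Figure D1:**
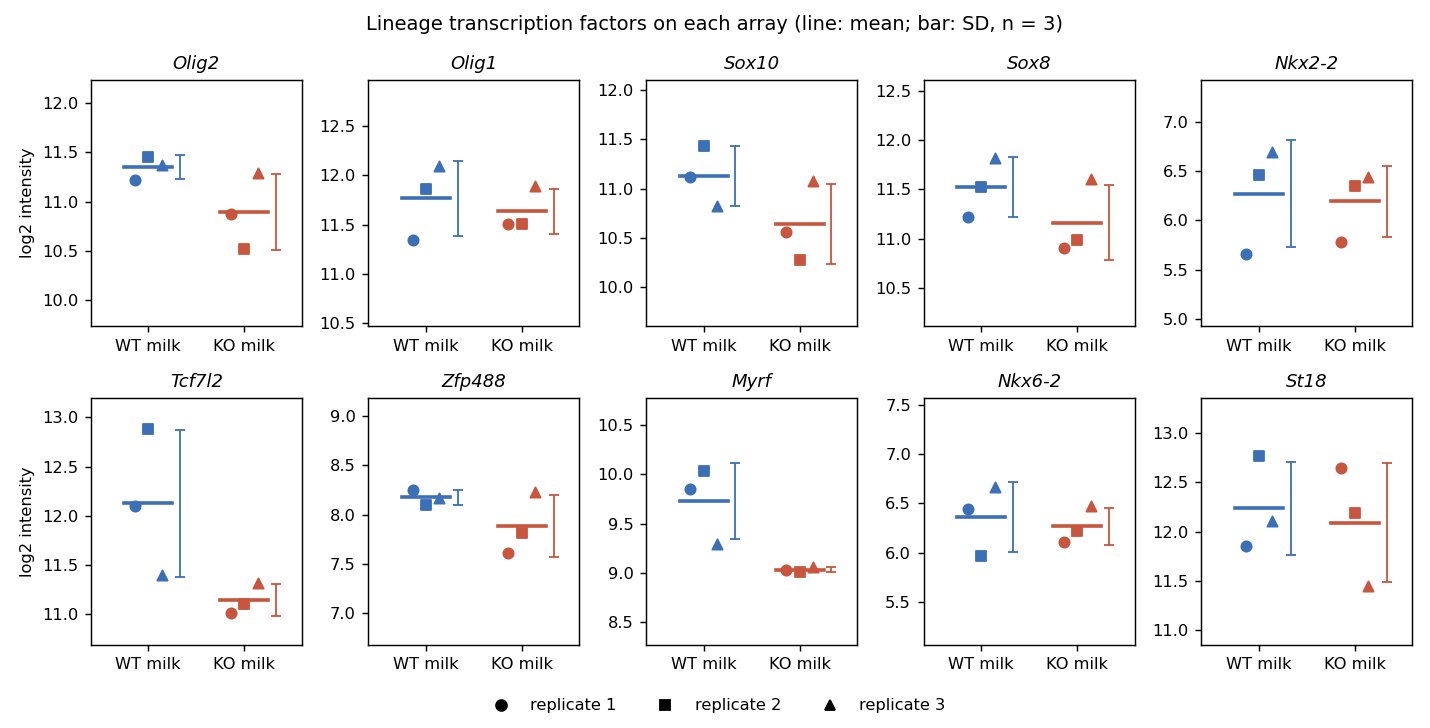
Log2 intensity of the 10 factors on each array (vertical axes, each spanning the same range) for WT milk and KO milk (horizontal), with the group mean as a line, the SD (n = 3) as a bar beside it and the replicate number as the marker. Only *Tcf7l2* and *Myrf* have all KO milk points below all WT milk points, and the KO milk points of *Myrf* nearly coincide.

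*Olig2*, the basic helix-loop-helix factor that specifies the lineage and stays on in it, had log2 intensities of 11.22, 11.46 and 11.38 on WT milk and 10.88, 10.52 and 11.29 on KO milk. KO milk replicates 1 and 2 lay below every WT milk array, and KO milk replicate 3 lay between WT milk replicates 1 and 3. The log2 fold change was -0.46 (standard error 0.22, 95% interval -0.93 to 0.02, unadjusted p = 0.0580 from limma). Without KO milk replicate 3 it was -0.65 (unadjusted p = 0.00643 from limma), and without KO milk replicate 2 it was -0.27 (unadjusted p = 0.240 from limma).

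*Olig1*, its neighbour on chromosome 16, which acts later in differentiation and in repair, read 11.35, 11.86 and 12.10 on WT milk and 11.51, 11.50 and 11.90 on KO milk. WT milk replicate 1 was the lowest of the 6, so the groups overlapped fully. The log2 fold change was -0.13 (95% interval -0.63 to 0.36 from limma), which leaves room for a change of either sign. Over the 6 arrays, *Olig1* and *Olig2* had a Pearson r of 0.62, given as a description of 6 points that include both groups.

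*Sox10*, an HMG-box factor that precursors and oligodendrocytes need and that acts on myelin genes together with MYRF, read 11.12, 11.44 and 10.82 on WT milk and 10.56, 10.27 and 11.08 on KO milk. As for *Olig2*, KO milk replicates 1 and 2 were the lowest of the 6 arrays and KO milk replicate 3 lay inside the WT milk range. Its log2 fold change was -0.49 (standard error 0.24, 95% interval -1.02 to 0.05, unadjusted p = 0.0689 from limma). Without KO milk replicate 3 it was -0.71 (unadjusted p = 0.00990 from limma), and without KO milk replicate 2 it was -0.31 (unadjusted p = 0.251 from limma). It also passed without WT milk replicate 3, at -0.64 (unadjusted p = 0.0407 from limma). *Sox10* is also a gene of Schwann cells and neural crest, and the 6 measured markers of those cells lay between 3.14 and 7.91, none of the 6 passed (0 lower, 0 higher), and their median difference was 0.04 (log2).

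*Sox8*, the relative of *Sox10* that works beside it in the lineage, read 11.22, 11.52 and 11.82 on WT milk and 10.90, 10.98 and 11.60 on KO milk. KO milk replicates 1 and 2 again lay below all WT milk arrays, and KO milk replicate 3 was the second highest of the 6. The log2 fold change was -0.36 (95% interval -0.88 to 0.16, unadjusted p = 0.156 from limma), and leaving out KO milk replicate 3 gave -0.58 (unadjusted p = 0.0211 from limma).

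Averaged over these 4 factors of the whole lineage, the deviation from the WT milk mean was -0.48, -0.62 and 0.03 in KO milk replicates 1, 2 and 3, and -0.22, 0.13 and 0.09 in the WT milk arrays. KO milk replicate 3, the array that stood apart on all clusters, was thus at the WT milk level for these factors, and the other KO milk arrays were below it.

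*Nkx2-2*, a homeodomain factor of cells about to differentiate, was dim, at 5.66, 6.46 and 6.69 on WT milk and 5.78, 6.35 and 6.44 on KO milk, below the median cluster of the array. Its log2 fold change was -0.08 (95% interval -0.70 to 0.54 from limma), and the sign turned when WT milk replicate 2 or 3 or KO milk replicate 1 was left out. No direction can be read for it at this precision.

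*Tcf7l2*, an HMG-box factor of the Wnt pathway that premyelinating oligodendrocytes need, showed the largest difference of the 10. Its log2 intensities were 12.10, 12.88 and 11.39 on WT milk and 11.01, 11.11 and 11.32 on KO milk. WT milk replicate 3 came within 0.07 of KO milk replicate 3, and WT milk replicate 2 was far above the rest. The log2 fold change was -0.98 (standard error 0.31, 95% interval -1.67 to -0.29, unadjusted p = 0.00967 from limma). The exact permutation test, two-sided, gave p = 0.1, the smallest that 3 against 3 samples allow. It was lower at an unadjusted p under 0.05 with any 1 array left out, with values between -1.35 and -0.60, the smallest without WT milk replicate 2. Its spread within groups (SD 0.54) was larger than that of 96.5% of the 8231 genes with a mean of at least 8, and in the unmoderated test it did not pass (unadjusted p = 0.0888).

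*Tcf7l2* is also a gene of thalamic neurons, which lie beside the hippocampus. Of 14 measured thalamus markers, 3 passed as lower and 0 as higher, where 1.70% and 1.46% of all genes did. In all, 9 of the 14 were below 0 and 5 above, around a median of -0.14 (log2). Without WT milk replicate 2, where 299 of 19505 genes were lower, 1 passed, as in the unmoderated test (1.61% of all genes). Without KO milk replicate 3 the median was -0.08. The 3 that passed with all arrays were *Slc17a6*, *Rora* and *Rgs16*. *Slc17a6*, a vesicular glutamate transporter, read 9.91, 9.92 and 9.51 on WT milk and 9.13, 9.33 and 8.72 on KO milk. *Rora* read 9.62, 9.38 and 9.01 and then 8.96, 8.99 and 8.43, and *Rgs16* 6.89, 7.28 and 6.77 and then 6.21, 6.33 and 6.85. The median deviation of the whole list from the WT milk mean was -0.07, 0.18 and -0.03 across WT milk arrays, and -0.11, -0.16 and -0.22 across KO milk arrays. WT milk replicate 2 was the highest array for both *Tcf7l2* and this list. The lowest WT milk array was replicate 3 for *Tcf7l2* and replicate 1 for the list. Across KO milk arrays the list fell from replicate 1 to 3, whereas *Tcf7l2* rose (deviations of -1.12, -1.02 and -0.81). The part of these neurons in the *Tcf7l2* result was not tested.

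RefSeq lists more than 1 start for *Tcf7l2*, which the single cluster of the array cannot tell apart. The 250 bases before the upstream start and before a start inside the gene are shown because this member differed most, read on the plus strand of GRCm38.p6 at chr19:55741560-55741809 and chr19:55895071-55895320, with a SOX core match in capitals.
Tcf7l2 upstream start: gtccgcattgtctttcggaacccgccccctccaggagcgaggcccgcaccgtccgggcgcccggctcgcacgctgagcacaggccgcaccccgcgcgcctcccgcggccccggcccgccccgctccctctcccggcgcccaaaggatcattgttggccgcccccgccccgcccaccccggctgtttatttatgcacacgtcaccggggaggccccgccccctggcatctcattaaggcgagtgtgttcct
Tcf7l2 internal start: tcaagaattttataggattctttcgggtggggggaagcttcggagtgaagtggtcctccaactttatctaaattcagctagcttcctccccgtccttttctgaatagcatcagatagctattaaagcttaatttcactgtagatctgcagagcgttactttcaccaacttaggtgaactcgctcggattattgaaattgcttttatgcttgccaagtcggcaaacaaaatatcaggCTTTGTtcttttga
The first is rich in G and C (72.8%) and the second is not (40.8%). Both strands of such windows were searched for the E-box CAGCTG, which basic helix-loop-helix factors bind. The SOX core searched was ACAAAG, which reads CTTTGT on the opposite strand. The motif taken for MYRF was CTGGCAC. The TCF core was CTTTGAT, which shares its opening letters with the reversed SOX core. Of the 10 factors, 6 had windows in the table, 7 windows in all, and only the internal *Tcf7l2* start held a match, 1 SOX core. Of all 32851 windows, 13.0% held the E-box, 16.5% the SOX core, 4.19% the MYRF motif and 3.21% the TCF core. A match is a string of letters and not a site, and *Olig1*, *Sox10*, *Myrf* and *St18* were not searched.

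*Zfp488*, a zinc finger protein that works with OLIG2 to promote differentiation, read 8.25, 8.10 and 8.17 on WT milk and 7.61, 7.81 and 8.23 on KO milk. The WT milk arrays were tight (SD 0.08), KO milk replicates 1 and 2 lay below them and KO milk replicate 3 among them. The log2 fold change was -0.29 (95% interval -0.73 to 0.15, unadjusted p = 0.172 from limma), and leaving out KO milk replicate 3 gave -0.46 (unadjusted p = 0.0223 from limma).

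*Myrf*, which encodes a membrane-anchored factor that is cleaved and then drives myelin genes in the nucleus, read 9.86, 10.04 and 9.29 on WT milk and 9.03, 9.01 and 9.06 on KO milk. The KO milk arrays had an SD of 0.03 (n = 3), with the array that stood apart on all clusters among them. WT milk replicate 3 was nearest to them, 0.24 above the highest. The log2 fold change was -0.70 (standard error 0.21, 95% interval -1.17 to -0.23, unadjusted p = 0.00724 from limma). The exact permutation test, two-sided, gave p = 0.1, the smallest possible here. *Myrf* was lower at an unadjusted p under 0.05 in all 16 alternative settings, between -0.92 without WT milk replicate 3 and -0.54 without WT milk replicate 2, with an adjusted p of 0.792 or more in each.

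*Nkx6-2*, a homeodomain factor of maturing oligodendrocytes, was dim, at 6.44, 5.97 and 6.66 on WT milk and 6.11, 6.22 and 6.47 on KO milk. The groups overlapped, and the log2 fold change was -0.09 (95% interval -0.57 to 0.38 from limma), or 0.06 without WT milk replicate 3. *St18*, a zinc finger factor of the MYT1 family, read 11.85, 12.76 and 12.10 on WT milk and 12.64, 12.19 and 11.45 on KO milk. It spread as widely as *Tcf7l2* (SD 0.54 within groups), but KO milk replicate 1 was the second highest array and KO milk replicate 3 the lowest. Its log2 fold change was -0.15 (95% interval -0.84 to 0.55 from limma), and 0.18 without KO milk replicate 3. Inhibitory neurons express *St18* too, and of their 14 measured markers 0 passed in either direction and 11 were below 0, around a median of -0.11. With Y-gene signal as a covariate 1 was lower (median -0.15), as without KO milk replicate 2 (median -0.09).

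**Figure D2:**
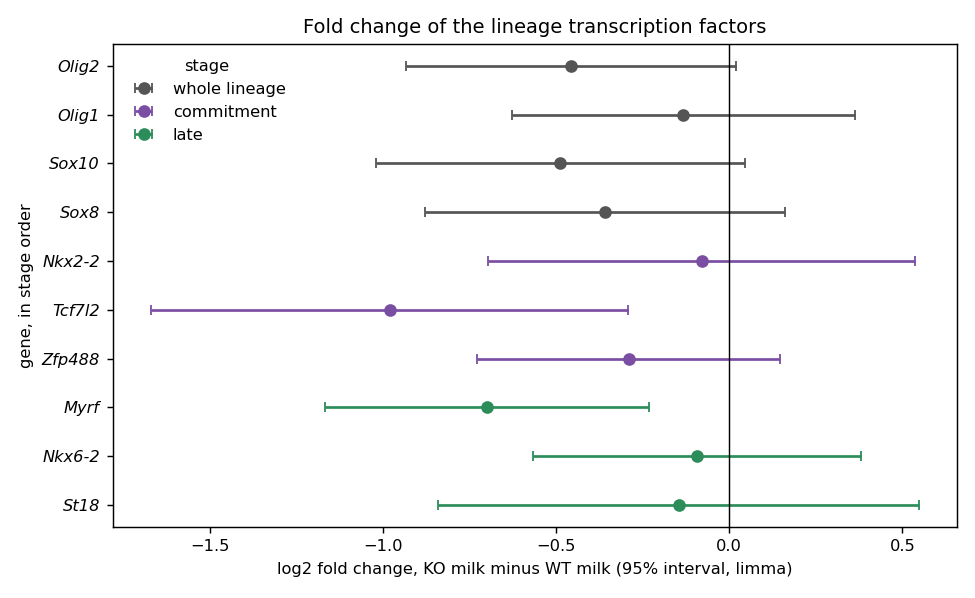
Log2 fold change, KO milk against WT milk (horizontal axis, negative where KO milk was lower), of each factor in stage order (vertical axis), with 95% intervals from limma and the colour giving the stage. The intervals of *Tcf7l2* and *Myrf* lie below 0 and those of the other 8 include it.

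By stage, the 4 factors of the whole lineage had a median log2 fold change of -0.41, the 3 of commitment (*Nkx2-2*, *Tcf7l2*, *Zfp488*) one of -0.29, and the 3 late ones (*Myrf*, *Nkx6-2*, *St18*) one of -0.15. The values ran from -0.49 to -0.13, from -0.98 to -0.08 and from -0.70 to -0.09 within these stages, and the order of the medians was not tested. The mean of the late factors minus that of the whole-lineage factors was 0.05, and per array it was 0.16, 0.02 and -0.18 on WT milk and 0.30, 0.32 and -0.48 on KO milk. In KO milk replicate 3 the late factors were thus below the WT milk mean (-0.45) and the whole-lineage factors about at it (0.03). In the other KO milk arrays the whole-lineage factors were further below it than the late ones. *Myrf* set against the same whole-lineage mean, a contrast chosen after the values were seen, gave 0.34, 0.18 and -0.52 on WT milk and -0.22, -0.10 and -0.70 on KO milk. The groups overlapped.

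The 10 factors did not share one pattern across arrays. *Tcf7l2* and *Myrf* had the same order of WT milk arrays, replicate 2 above 1 above 3, with all KO milk arrays below (Pearson r of 0.97 over 6 arrays). *Olig1*, *Sox8*, *Nkx2-2* and *Nkx6-2* shared WT milk replicate 3 as their highest array. *Olig1* had r of 0.89 with *Sox8* and 0.88 with *Nkx2-2*, but 0.35 with *Nkx6-2* and -0.03 with *Myrf*. These are descriptions of 6 points in 2 groups. KO milk replicates 1 and 2 were each below every WT milk array for 6 of the 10 factors and KO milk replicate 3 for 3 of them. No factor was above every WT milk array on any KO milk array. The same counts per array were not made over all genes, so nothing particular to the factors can be read from them.

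**Figure D3:**
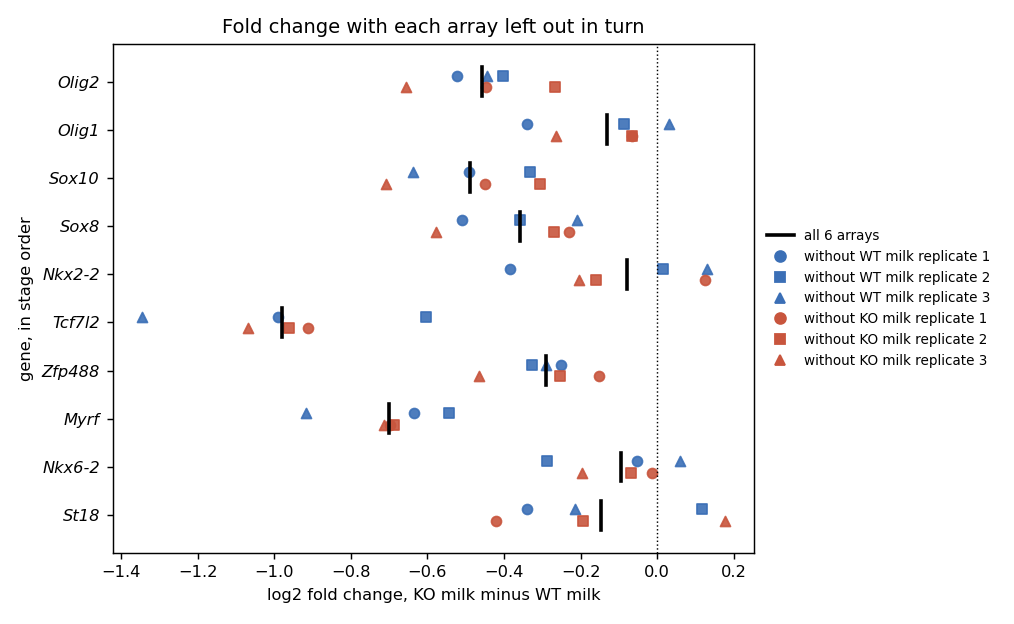
Log2 fold change, KO milk against WT milk (horizontal axis, negative where KO milk was lower), of each factor (vertical axis) with all 6 arrays (black line) and with each array left out (blue for WT milk, red for KO milk, marker for the replicate). Without KO milk replicate 3 *Olig2*, *Sox10*, *Sox8* and *Zfp488* move away from 0, while *Olig1*, *Nkx2-2*, *Nkx6-2* and *St18* have values on both sides of 0.

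The count of factors that passed depended on KO milk replicate 3. Without it, limma gave 6 of 10 factors an unadjusted p under 0.05, all lower (*Olig2*, *Sox10*, *Sox8*, *Tcf7l2*, *Zfp488* and *Myrf*) where 2.03% of all genes were, and the median log2 fold change was -0.52. Within the arrays of high Y-gene signal, 2 WT milk against 1 KO milk, the log2 difference was -0.57 for *Myrf*, -0.64 for *Tcf7l2*, -0.78 for *Olig2* and -0.70 for *Sox10*. Within those of low signal, 1 against 2, it was -0.997, -1.71, -0.37 and -0.62. In both strata 7 of 10 factors were below 0, and *Nkx2-2*, *Nkx6-2* and *St18* changed sign between them. With Y-gene signal as a covariate 4 factors (*Olig2*, *Sox10*, *Tcf7l2* and *Myrf*) were lower at an unadjusted p under 0.05, where 1.31% of all genes were. With array weights the count was 6 (2.62% of all genes), with the replicate block 2 (1.82%) and in the unmoderated test 1, *Myrf* (1.61%).

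Genes that MYRF and SOX10 act on, or that mature oligodendrocytes express, were lower together with *Myrf*. Of 16 measured, 11 passed that threshold as lower, where 1.70% of all genes did, and 0 as higher. Their median log2 fold change was -0.80. Without KO milk replicate 3, 13 were lower (2.03% of all genes) with a median of -0.78, and in the unmoderated test 8 were (1.61%). With an array left out the median ran from -0.61 (without KO milk replicate 1) to -0.97 (without KO milk replicate 2). *Cldn11*, the claudin of myelin, read 9.77, 9.79 and 9.47 on WT milk and 8.03, 8.82 and 8.39 on KO milk, a difference of -1.26 on the log2 scale (standard error 0.22, unadjusted p = 0.000152 from limma). *Gjc3*, a connexin of glia, *Ugt8a*, which makes the myelin lipid galactocerebroside, and *Mobp*, a basic protein of myelin, differed by -1.24, -1.18 and -1.11, and for each of these 4 genes every KO milk array lay below every WT milk array. Per array the median deviation was -0.09, 0.13 and -0.06 on WT milk and -1.16, -0.41 and -0.78 on KO milk. KO milk replicate 1 was the lowest and replicate 2 the highest KO milk array for these genes, whereas *Myrf* was nearly the same in all KO milk arrays. WT milk replicate 3, which was low for *Myrf*, was at the WT milk level for these 16 genes.

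Other regulators of the lineage had medians near 0. Of 16 further factors and partners, 1 was higher and 0 lower at that threshold, and the median was -0.10. The higher one was *Zfp536*, a zinc finger repressor, at 9.46, 9.35 and 9.08 on WT milk and 9.84, 9.66 and 10.03 on KO milk, a difference of 0.55 on the log2 scale (SE 0.19, unadjusted p = 0.0139 from limma). Without WT milk replicate 3 none of the 16 passed (0 higher, 0 lower). Of 15 factors that hold precursors undifferentiated or report Wnt activity, 1 was lower and 14 did not pass, with a median of -0.01. That one was *Id4*, which blocks helix-loop-helix factors such as the OLIG proteins, at 10.13, 10.20 and 9.99 on WT milk and 9.43, 9.60 and 9.31 on KO milk, a difference of -0.66 on the log2 scale (SE 0.17, unadjusted p = 0.0030 from limma). Of 11 chromatin enzymes that differentiation needs, among them *Smarca4* and *Chd8*, 0 passed and the median was 0.08. Of 15 relatives in the protein families of the 10 factors 0 passed, with a median of 0.09, and *Myt1*, the relative of *St18*, had 0.34 (unadjusted p = 0.0764 from limma). Most of these relatives were dim, and the 5 with a mean of at least 6 had a median of -0.06. *Sox9*, *Nkx6-1* and *Lef1* are counted both here and in the lists above. Of 12 genes of precursors and of cells leaving that state, 1 was lower, *Gpr17*, which marks committed cells, at -0.50, and the median was -0.01. That call was lost without WT milk replicate 1, without WT milk replicate 2, after quantile normalization and in the unmoderated test.

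**Figure D4:**
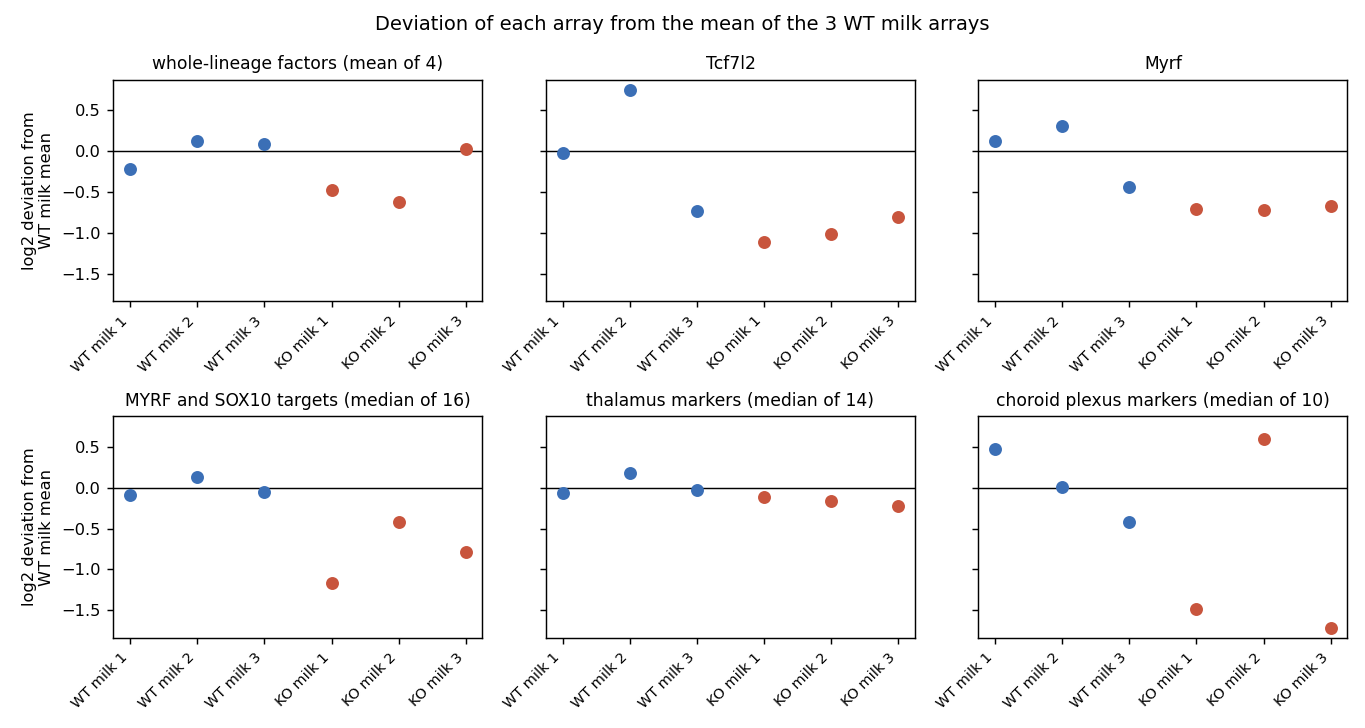
Log2 deviation of each array (horizontal axis, WT milk blue, KO milk red) from the mean of the 3 WT milk arrays (vertical axis) for the whole-lineage factors, *Tcf7l2*, *Myrf*, the 16 genes titled as MYRF and SOX10 targets and markers of thalamus and choroid plexus. These 16 are genes that MYRF and SOX10 act on or that mature oligodendrocytes express. *Myrf* is about equally low on the KO milk arrays, whereas the whole-lineage factors are at 0.03 and the choroid plexus markers at -1.71 on KO milk replicate 3.

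Markers of other cells moved in different ways. Of 10 measured choroid plexus markers, 2 were lower (*Ttr* and *Clic6*), where 1.70% of all genes were. The median log2 fold change of the 10 was -0.89, with medians per array of 0.48, 0.01 and -0.42 on WT milk and -1.49, 0.60 and -1.71 on KO milk. Leaving out KO milk replicate 3, 0 passed and the median was -0.51, and 0 passed without KO milk replicate 1 (median -0.43), without WT milk replicate 1 (-0.62) or in the unmoderated test. With KO milk replicate 2 left out, 9 passed (median -1.51), where 733 of 19505 genes were lower, against 332 with all arrays. With Y-gene signal as a covariate 1 did (-0.47), where 1.31% of all genes were lower. KO milk replicate 2 was the highest array for this list. It was the lowest for *Olig2*, *Sox10* and *Myrf*, for *Myrf* by little (9.01 against 9.03 in KO milk replicate 1). KO milk replicate 1 was the lowest for *Sox8*, *Tcf7l2* and *Zfp488*, and KO milk replicate 3 for *St18*. For *Olig1*, *Nkx2-2* and *Nkx6-2* the lowest was a WT milk array. Of 10 astrocyte and 8 microglia markers 0 passed, with medians of -0.03 and -0.01, and with 1 array left out at most 1 of each list did. Without KO milk replicate 3, 9 of 10 astrocyte markers (median -0.06) and 6 of 8 microglia markers (median -0.20) were below 0, where 49.4% of all genes were. With all arrays 5 of 10 and 5 of 8 were below 0. Without KO milk replicate 1 the medians were 0.04 and 0.08. The part of choroid plexus tissue, of KO milk replicate 3 and of sex in the results for the 10 factors was not tested beyond the values given here.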

How the data were processed

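Hippocampal RNA was hybridised to Clariom S mouse arrays with a single label, 3 arrays per group. The authors deposited 1 log2 intensity per cluster and sample, computed by RMA in Transcriptome Analysis Console per the labels, a method that corrects background, equalizes the arrays and summarizes the probes. The background option, genome build and annotation version are not given in the sources used here. Values were used without further scaling or filter. Of 22206 clusters, 19572 carried 1 gene symbol and 2634 none. Where clusters shared a symbol the one of highest mean was kept, giving 19505 genes.

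The difference of KO milk from WT milk was estimated for every cluster by lmFit and eBayes of limma 3.58.1 (R 4.3.3), with Benjamini-Hochberg adjustment over all clusters. Single genes were also tested by the exact permutation test over samples. The fits were tested on simulated data. Factors, gene lists, named genes (the 10 factors, up to 4 genes with the smallest p per list, and those that passed where 5 or fewer) and alternatives were chosen with earlier results of these data known. *Slc17a7* was named after its values were seen. Alternatives were other normalizations, intensity filters, array weights, another variance prior, an unmoderated test, the replicate number as a block, Y-gene signal as a covariate, and each array left out. Listed genes without a cluster were not analysed here. Promoter windows came from RefSeq on GRCm38.p6. The number of arrays limits the precision.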

Additional observations from a re-analysis of the deposited data

How the results depend on the processing

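*Myrf* kept its direction and an unadjusted p under 0.05 in all 16 alternatives, and *Tcf7l2* in 15, the exception being the unmoderated test (unadjusted p = 0.0888). The count of factors lower at an unadjusted p under 0.05 was 2, and it was 6 with array weights (where 2.62% of all genes were lower), 4 with Y-gene signal as a covariate, 1 with the unmoderated test (where 1.61% were) and 2 to 6 with an array left out. The sign of 4 factors turned, with values from -0.34 to 0.032 for *Olig1*, -0.38 to 0.13 for *Nkx2-2* (0.02 without WT milk replicate 2), -0.29 to 0.060 for *Nkx6-2* and -0.42 to 0.18 for *St18* with an array left out, and 0.075 for *St18* with array weights. The late minus whole-lineage difference ran from -0.09 to 0.31. Same-numbered samples did not deviate together (correlations of 0.02, -0.13 and 0.02), so numbers were not taken as pairs, and with the replicate block 2 factors were lower. Over all clusters, the counts lower and higher were 234 and 108 with a mean of at least 6 required, 137 and 58 with at least 8 (fewer clusters tested), 576 and 589 with array weights, 219 higher with Y-gene signal, and 307 to 804 lower and 280 to 572 higher with an array left out, the highest without KO milk replicate 2, where limma called 1 cluster after adjustment (0 to 1 in all). The causes were not tested. Each factor has 1 cluster, so averaging clusters gave no other value.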

Other observations

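Among 8223 other genes with a mean log2 intensity of at least 8, those whose levels followed a factor most closely over the 6 arrays were *Cend1*, *Prkar2a* and *Ttyh1* for *Olig2* (Pearson r of 0.98, 0.98 and 0.97), *Prkar2a*, *Sfxn5* and *Scd3* for *Sox10* (0.97, 0.96 and 0.95) and *Slc7a10*, *Pacsin2* and *Atl3* for *Myrf* (0.99, 0.98 and 0.98). With 6 arrays in 2 groups these values are a description. *Prkar2a* was on the lists of both *Olig2* and *Sox10*. *Slc7a10*, an amino acid transporter of astrocytes, read 10.18, 10.23 and 9.90 on WT milk and 9.88, 9.85 and 9.85 on KO milk, a log2 difference of -0.24 (unadjusted p = 0.189 from limma). None of these genes passed an unadjusted p of 0.05.

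*Prox1*, used to check the tissue, was higher on each KO milk array than on any WT milk array, at 13.74, 13.44 and 13.60 on WT milk and 14.06, 14.39 and 13.96 on KO milk, a log2 difference of 0.54 (unadjusted p = 0.0149 from limma). Of the 11 measured markers of hippocampal neurons, 1 was higher, 0 were lower and the median was 0.12. Without KO milk replicate 2 the *Prox1* call was lost (0 higher, median 0.03), and without WT milk replicate 2 another marker was lower (1 of 11) and the median was -0.01. Leaving out KO milk replicate 3, the median was 0.02, with 1 lower and 1 higher.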
